A study of Mus musculus with 55 samples.

Results

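The comparison set 4 libraries of granulocyte-macrophage progenitors (GMPs) against 4 libraries of common myeloid progenitors (CMPs), all from the bone marrow of wild-type (WT) mice. The 8 libraries are the WT GMP and WT CMP columns that carry the replicate numbers 2, 3, 4 and 5, out of 55 samples in the series. Each library was made by SMART-seq2, a full-length cDNA method, from a small number of cells sorted by flow cytometry, and each sorted sample was counted as 1 replicate. The study worked with C57BL/6 mice and made its mutant by crossing a floxed Tet2 allele to Mx1-Cre, a Cre driven by an interferon-inducible promoter that acts in the blood system and in other tissues that respond to interferon. Cre was induced at 4 weeks of age with 5 doses of poly(I:C), and marrow was taken 16 weeks after induction. The sources used here do not say whether the WT mice also received poly(I:C), so all levels given for WT cells are for animals whose exposure is not known. The CMP gate was negative for lineage markers and Sca1, positive for cKit, intermediate to positive for CD34 and intermediate for CD16/32, and the GMP gate differed from it by CD34 positivity and a high CD16/32 signal.

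Blood granulocytes and monocytes arise from progenitors that pass from a broad myeloid potential to a narrower one. A CMP pool as gated here holds cells that can give rise to erythrocytes, megakaryocytes, granulocytes and macrophages, while most GMPs are restricted to neutrophils, monocytes and related cells. The promyelocyte step that follows the GMP fills the primary granules with myeloperoxidase and serine proteases, under the transcription factors PU.1 (Spi1), C/EBP alpha and epsilon (Cebpa, Cebpe) and Gfi1. Irf8 favours monocytes and dendritic cells, whereas GATA1 with its partners drives erythroid and megakaryocytic genes. In bulk libraries of sorted cells, fewer cells of a type and less RNA of that type per cell cannot be told apart.

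The promoters of genes at both ends of the comparison are shown because they let the letters known for PU.1, C/EBP and GATA factors be read beside the levels of genes that moved with GMP or CMP identity. They were taken from RefSeq (GRCm38.p6), run 5′ to 3′ on the strand of the gene and end at or before the start site. Capitals mark matches on either strand to GAGGAA, the letters known for PU.1. They also mark TTNNGNAA, known for C/EBP factors, and AGATAA, known for factors of the Gata1 family. The stretch of Elane (neutrophil elastase) lay at chr10:79886162-79886246 on the plus strand, and GAGGAA stood 85 to 80 bases before the start. That of its neighbour Prtn3 (proteinase 3) lay at chr10:79879517-79879613 on the plus strand, with GAGGAA 95 to 90 bases before the start. The starts are those of RefSeq, and GENCODE vM21 begins Elane 65 bases and Prtn3 5191 bases further upstream, so the Prtn3 stretch lies inside the span that GENCODE gives the gene. The Ms4a3 stretch was chr19:11640852-11641001 on the minus strand, and its C/EBP match stood 59 to 52 bases before the start.
Elane: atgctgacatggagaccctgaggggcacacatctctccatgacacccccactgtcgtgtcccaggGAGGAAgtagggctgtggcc
Prtn3: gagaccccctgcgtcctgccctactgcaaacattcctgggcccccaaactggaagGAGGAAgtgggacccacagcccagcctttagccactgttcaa
Ms4a3: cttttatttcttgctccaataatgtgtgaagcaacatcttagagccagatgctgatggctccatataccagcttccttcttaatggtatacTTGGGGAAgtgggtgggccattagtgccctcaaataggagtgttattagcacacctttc

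From the genes higher in CMPs, Pf4 (platelet factor 4) was read at chr5:90772285-90772434 on the plus strand, with a C/EBP match 39 to 32 bases and the reverse complement of the PU.1 letters 8 to 3 bases before the start. The wider Pf4 window, from 250 bases before to 50 after the start, also held the GATA letters, but not within the stretch shown. Epor (the erythropoietin receptor) was read at chr9:21963577-21963726 on the minus strand, with the reverse complement of AGATAA 54 to 49 bases before the start.
Pf4: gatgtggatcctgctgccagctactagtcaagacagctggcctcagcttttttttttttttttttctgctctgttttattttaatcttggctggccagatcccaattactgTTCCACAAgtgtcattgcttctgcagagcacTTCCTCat
Epor: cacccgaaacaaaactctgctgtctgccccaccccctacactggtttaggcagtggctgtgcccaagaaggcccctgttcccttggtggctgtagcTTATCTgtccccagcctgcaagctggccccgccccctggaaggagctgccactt

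Over the promoters of 10371 tested genes (250 bases before to 50 after the start), GATA letters stood in 9.67% of the 641 promoters of genes higher in CMPs, in 5.73% of the 978 of genes higher in GMPs and in 6.75% of all those tested. They were in 5 of 20 promoters of erythroid genes, in 6 of 23 of megakaryocyte genes and in 0 of 17 of primary granule genes. PU.1 letters were in 8 of 17 primary granule promoters, among them Elane, Prtn3, Mpo, Ctsg and Ms4a3, in 9 of 23 megakaryocyte and 4 of 20 erythroid promoters, and in 26.7% of all tested promoters. C/EBP letters were in 7 of 17 primary granule, 8 of 23 megakaryocyte and 11 of 20 erythroid promoters. Over all called genes the PU.1 letters differed little, at 30.0% of those higher in GMPs and 28.7% of those higher in CMPs, and C/EBP letters stood at 32.9% and 32.6% beside 32.4% of all tested. RUNX letters (TGTGGT, either strand) were in 14%, 16.2% and 12.9% of the same 3 sets. Over all 27025 RefSeq promoters the shares were 40.7% for C/EBP, 28.3% for PU.1, 11.4% for GATA and 16.9% for RUNX. A match of letters is a description of the window and not a bound site.

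The libraries were deep and alike in size. GMP libraries held 57900451 to 73459764 counted reads (median 65615527) and CMP libraries 63166885 to 70924660 (median 67966397.5). A count above 0 was seen for 19675 to 20615 genes in GMP libraries and for 18569 to 19012 in CMP libraries, and mitochondrially encoded transcripts made up 3.64% to 4.60% of counts in GMPs and 5.94% to 6.57% in CMPs. Neither range overlapped between the populations. With the genes of the mitochondrial genome left out, 1322 genes were called higher in GMPs and 866 in CMPs, all of them among the calls given below, while the part of the number of genes detected was not tested. Markers of the gates' neighbours were summed in counts per 1000000 counts of a library (CPM, scaled by the trimmed mean of M values). The 9 GMP markers summed to 38500 to 48400 CPM in GMPs and 4160 to 5870 in CMPs, so the GMP label fitted its markers. The summed level of the 3 markers of CMPs and multipotent cells overlapped, at 661 to 813 CPM in CMPs and 549 to 775 in GMPs, and of the 3 genes Meis1 was called higher in CMPs. Of the genes behind the gates, Cd34 did not separate the populations, at 495.8 to 673.4 CPM in GMPs and 525.8 to 648.0 in CMPs, nor did Kit, while Fcgr3 and Fcgr2b, which encode CD16 and CD32, were higher in GMPs. As these genes encode the sorted proteins they are a check of the sort and no result. Markers of mature neutrophils summed to 35.5 to 68.5 CPM in GMPs and 5.26 to 8.79 in CMPs, with Ltf and Ly6g at 0 in all 8 libraries. Ngp and Retnlg were below 1 CPM in all 8 and Camp reached at most 1.08 CPM, so this sum came mostly from S100a8 and Cxcr2. T and NK cell markers summed to 2.26 to 3.84 CPM in GMPs and 8.16 to 12.4 in CMPs with Ncr1 at 0 throughout, B cell markers to 0.132 to 3.06 and 0.208 to 1.09, and macrophage markers to 14.7 to 26.3 and 2.20 to 5.20 with Cd5l at 0 throughout. The macrophage sum came mostly from Vcam1 and Adgre1, as C1qa and C1qb were below 1 CPM in all 8 libraries.

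Between the populations, most tested genes of primary granules and of the late neutrophil list were higher in GMPs, and most tested erythroid effector and megakaryocyte genes were higher in CMPs. Of 16284 genes tested, 1325 (8.14%) were at least 2-fold higher in GMPs and 866 (5.32%) at least 2-fold higher in CMPs at an adjusted p under 0.05 by the quasi-likelihood test of edgeR. Called genes are those that met both thresholds. The shares of 8.14% and 5.32% are the background for every count of called list members below. The median log2 difference (GMP minus CMP) over all tested genes was 0.03, and 8348 were higher in GMPs by sign. The median called difference was 1.57 on the log2 scale for genes higher in GMPs and -1.76 for those higher in CMPs, and 428 and 365 genes passed 4-fold. All 4 GMP libraries lay above all 4 CMP libraries for 2832 tested genes (17.4%), and all 4 CMP libraries lay above for 2179 (13.4%). Among called genes that separation held for 1276 of the 1325 and for 815 of the 866. A count of 3 or fewer in every CMP library was found for 91 of the genes higher in GMPs, and the same in every GMP library for 23 of the genes higher in CMPs. With the spread estimated from all 46 libraries of the table, which hold 12 groups, 187 and 253 genes were called, and with the 22 WT libraries 321 and 309. Of the genes named below, 111 lost their calls in the former fit and 87 in the latter. Mpo, Gfi1 and Irf8 were lost in both, and Cebpe, Elane and Gata1 in the former alone.

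**Figure D1:**
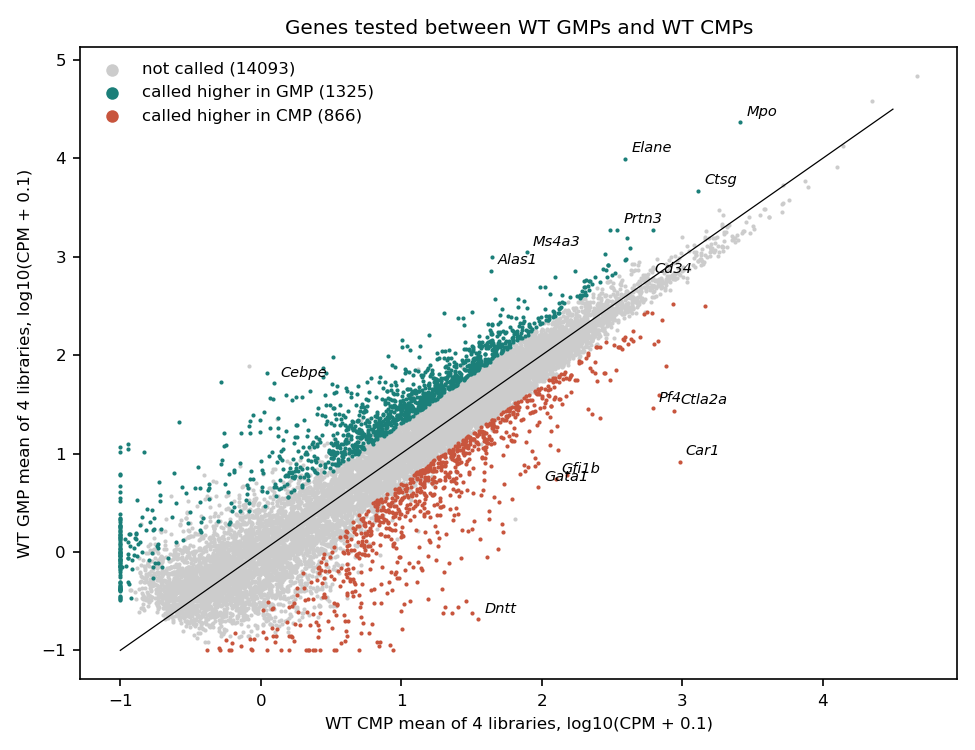
Mean level of each tested gene in WT GMPs (vertical axis) against WT CMPs (horizontal axis), as log10(CPM + 0.1) over 4 libraries each, with genes called higher in GMPs and in CMPs coloured and grey points not called. The 1325 genes higher in GMPs lie above the diagonal and include Mpo and Elane at its upper end, and the 866 higher in CMPs lie below it and include Car1 and Ctla2a.

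Genes of primary granule proteins included very abundant transcripts. The 4 genes Mpo, Elane, Prtn3 and Ctsg together took 3.62%, 3.96%, 3.50% and 4.60% of all counts in GMP replicates 2 to 5, and 0.394%, 0.476%, 0.582% and 0.439% in CMP replicates 2 to 5. Of 23 tested genes for primary granule proteins and their processing, 14 were higher in GMPs and the other 9 were not called, with a median log2 difference of 1.29 beside 0.03 for all genes. Elane stood at 10098, 10366, 8273 and 10955 CPM in GMP replicates 2 to 5 and at 437, 392, 407 and 336 CPM in CMP replicates 2 to 5. Its groups were far apart, with a log2 difference of 4.66 (SE 0.13, adjusted p = 5.856e-08), the steepest of the granule proteases. Mpo, which encodes myeloperoxidase, was counted at 21147, 22736, 22059 and 27936 CPM in GMPs and 2097, 2541, 3186 and 2551 CPM in CMPs. It was the most abundant of the set and was higher by 3.18 (SE 0.14, adjusted p = 1.388e-06). Its call was lost in the edgeR fits of all 46 and of 22 WT libraries (adjusted p = 0.104 and 0.09032). Prtn3 ran from 1635 to 2322 CPM in GMPs and 247.1 to 460.2 in CMPs, a difference of 2.46 (SE 0.20). Ctsg, the gene of cathepsin G, ran from 4405 to 5351 and from 1161 to 1653 CPM, a difference of 1.86 (SE 0.13), so CMPs already held a larger part of its GMP level than they did for Elane.

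Ms4a3, a membrane protein gene used as a mark of GMPs, stood at 902, 1034, 1299 and 1237 CPM in GMPs and 90.9, 90.7, 81.3 and 49.2 CPM in CMPs, a log2 difference of 3.84 (SE 0.22, adjusted p = 5.835e-06). Per kilobase of exon the order in GMPs was Elane at 10080, Mpo at 6854, Ctsg at 4554, Prtn3 at 1090 and Ms4a3 at 593 CPM per kilobase, whereas in CMPs Ctsg came first at 1258, followed by Mpo at 758, Elane at 399, Prtn3 at 198 and Ms4a3 at 41.4. Prss57, a serine protease gene, was higher by 2.86 (SE 0.22), but 40.7% of its exonic bases are shared with Fstl3 on the other strand, and SMART-seq2 does not record the strand. Anxa3 and Nucb2 were higher by 2.50 and 2.55, and the lysosomal Hexa, Cst7 and Ctsd by 1.33, 1.29 and 1.16. Not every granule gene followed. Ctsc, whose product activates the granule proteases, had a difference of 0.54 (SE 0.11) and Nkg7 of 0.75 (SE 0.10), each below 2-fold with all GMP libraries above, and Lyz2 (lysozyme) had -0.39 (SE 0.12) with all CMP libraries above.

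Secondary and late granules are filled by neutrophil precursors after the primary granules. The list of their genes also holds late neutrophil genes of other kinds, such as the receptor genes Ltb4r1 and Cxcr2. Its members were mostly low or not tested, and part of them were higher in GMPs. Of 24 listed genes, 13 had enough counts to be tested and 9 were higher in GMPs, with a median of 2.46. The filter admits a gene with counts in 1 population only. A member seen in GMPs alone, such as Wfdc21, could therefore only be called higher in GMPs, and the count and median describe the tested members only. Of the 9, Lcn2 lost its call without GMP replicate 4 or 5, each left out alone. The 11 that were not tested included Ltf, Ngp, Mmp9, Retnlg and Ly6g. Hp (haptoglobin) stood at 196, 248, 241 and 269 CPM in GMPs and 15.4, 28.2, 35.1 and 22.4 CPM in CMPs, a difference of 3.24 (SE 0.24, adjusted p = 2.503e-05). S100a8, a subunit of calprotectin, stood at 15.8, 44.4, 25.3 and 54.9 CPM in GMPs and 0.867, 3.90, 0.927 and 0.553 CPM in CMPs. The groups did not overlap although GMP libraries differed by up to 3.47-fold among themselves, and the difference was 4.46 (SE 0.68, adjusted p = 0.00106). Pglyrp1 and Ltb4r1, for a peptidoglycan-binding protein and a leukotriene B4 receptor, were higher by 2.79 and 2.46. Wfdc21 had 3.55 to 10.5 CPM in GMPs and no read in any CMP library, and was at least 140-fold higher on a floor of 3 counts in each CMP library. On the same floor Fcnb (ficolin B), with 1.20 to 10.8 CPM in GMPs and none in CMPs, was at least 135-fold higher.

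Among the regulators of granulocytes and monocytes, a few factors were higher in GMPs and most were not called. Of 28 tested granulocyte and monocyte transcription factors, 5 were higher in GMPs (Cebpe, Gfi1, Nfil3, Irf8 and Spi1) and 4 higher in CMPs (Hoxa10, Klf4, Egr1 and Id1), with a median of 0.14. Id1 lost its call without GMP replicate 2, 3 or 5 or CMP replicate 4 or 5, each left out alone (adjusted p = 0.05093 to 0.05698). Cebpe, required for terminal granulocyte differentiation, stood at 41.7, 41.0, 53.1 and 73.3 CPM in GMPs and 0.514, 0.482, 0.968 and 2.61 CPM in CMPs. The lowest GMP library was well above the highest CMP library, and the difference was 5.47 (SE 0.57, adjusted p = 0.0001276). Gfi1, a repressor needed for neutrophil development, ran from 20.6 to 33.1 CPM in GMPs and 1.36 to 6.38 in CMPs, a difference of 2.91 (SE 0.45, adjusted p = 0.001107). Irf8, which favours monocytes and dendritic cells, stood at 163, 191, 245 and 280 CPM in GMPs and 62.8, 32.7, 120 and 85.6 CPM in CMPs, a difference of 1.55 (SE 0.34, adjusted p = 0.007489).

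Spi1, which encodes PU.1, stood at 270, 194, 225 and 242 CPM in GMPs and 106, 99.6, 130 and 116 CPM in CMPs. The groups were apart, but the difference of 1.04 (SE 0.13, adjusted p = 0.0003909) sat at the 2-fold line. It fell to 0.95 without GMP replicate 2, to 0.999 without GMP replicate 5 and to 0.97 without CMP replicate 3, where it was no longer called. Cebpa, the factor of the step from CMP to GMP, stood at 28.9, 33.0, 29.1 and 35.1 CPM in GMPs and 10.9, 19.6, 27.6 and 12.7 CPM in CMPs. All GMP libraries were above, but CMP replicate 4 came close to them and the difference of 0.83 (SE 0.28, adjusted p = 0.05103) was not called. Without CMP replicate 4 it was 1.13 and called (adjusted p = 0.008727, range 0.008727 to 0.9031 over the alternatives). Runx1 and Myb, factors of early blood cells, differed by 0.07 (SE 0.14) and 0.05 (SE 0.13). Klf4, a monocyte factor at low levels, was lower in GMPs (-1.44, SE 0.36).

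**Figure D2:**
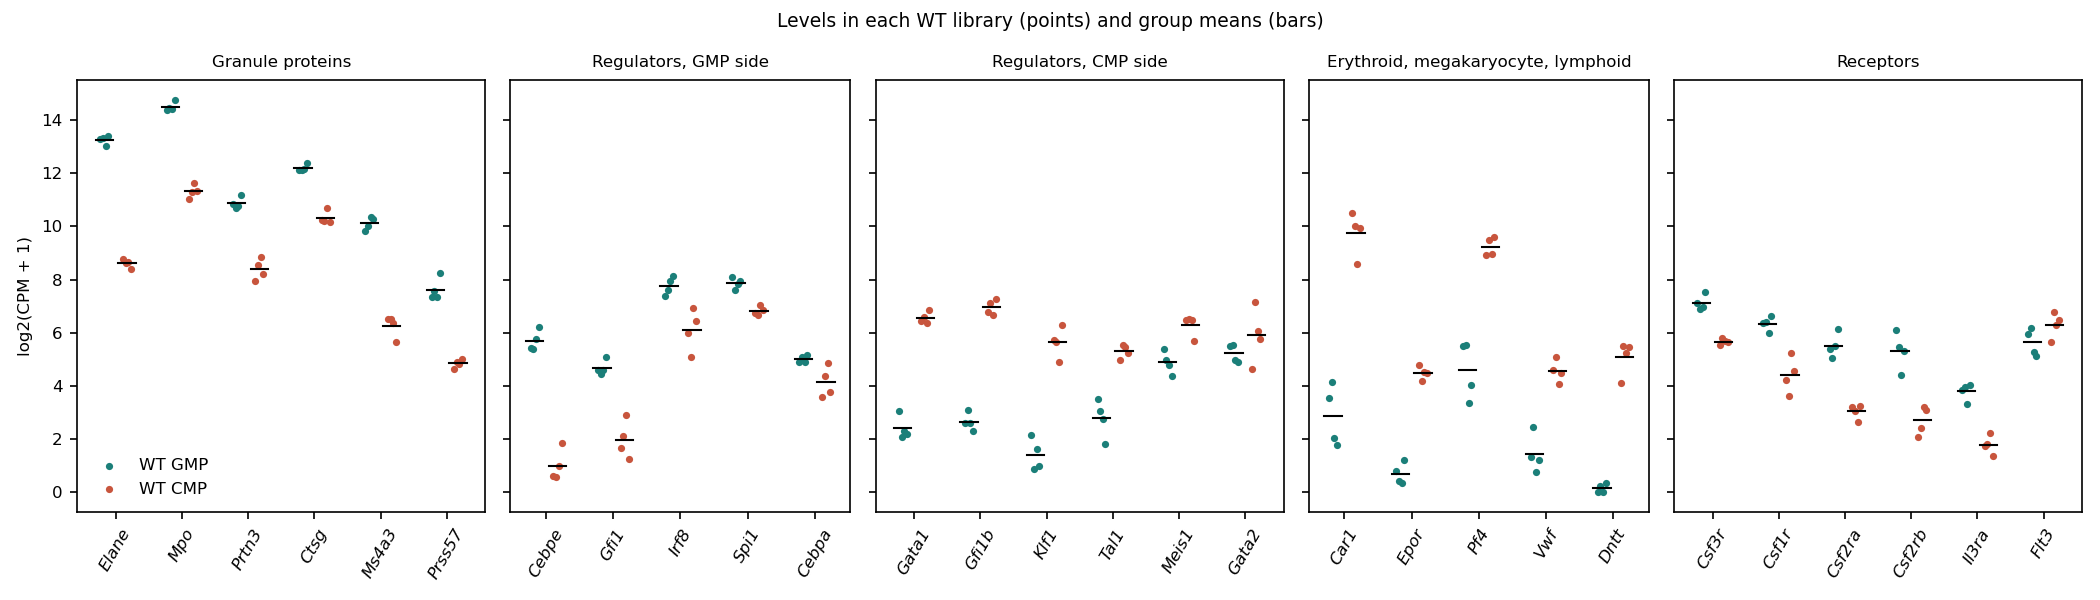
Level of named genes in each of the 8 WT libraries as log2(CPM + 1), with 1 point per library, bars at group means and GMPs and CMPs in separate colours, in panels by gene group. Elane, Mpo and Cebpe points of GMPs lie above all CMP points, those of Gata1, Car1 and Pf4 lie below, and the Cebpa points of CMP replicate 4 and the GMP libraries nearly meet.

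Phagocyte and innate immune genes were partly raised in GMPs. Of 20 tested genes of the NADPH oxidase and phagocyte killing, 4 were higher in GMPs and the other 16 were not called, with a median of 0.73. Cybb, the catalytic subunit of the phagocyte oxidase, stood at 59.8, 58.8, 60.7 and 60.1 CPM in GMPs and 1.46, 4.40, 4.66 and 0.227 CPM in CMPs. The GMP libraries were nearly equal and the CMP libraries scattered, with a difference of 4.46 (SE 0.70, adjusted p = 0.001311). Ncf1, a cytosolic subunit of the same oxidase, was higher by 1.93 (SE 0.30). The proton channel gene Hvcn1 was higher by 3.30 (SE 0.25), with 44.2% of its exonic bases shared with Tctn1. Of 33 tested genes of pattern recognition and inflammatory signalling, 8 were higher in GMPs and 5 in CMPs, with a median of 0.44. Tlr2 ran from 33.7 to 50.5 CPM in GMPs and 7.73 to 22.2 in CMPs, and Clec5a, a myeloid lectin receptor, from 33.1 to 45.2 and from 1.74 to 3.42 CPM. Il1b and Il18, which encode inflammatory cytokines, were on the other side, with differences of -2.40 (SE 0.61) and -1.34 (SE 0.33).

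Of 36 tested monocyte and dendritic cell genes, 12 were higher in GMPs and 2 in CMPs (Zbtb46 and S100a4), with a median of 0.61. F13a1, a coagulation factor subunit of monocytes, stood at 426, 516, 557 and 482 CPM in GMPs and 62.3, 97.7, 140 and 125 CPM in CMPs, a difference of 2.22 (SE 0.23). Tifab was higher by 3.51 (SE 0.15, adjusted p = 9.167e-07), with GMP libraries between 113 and 153 CPM and CMP libraries between 9.96 and 11.9. Ly6c2 and Ly6c1, the genes behind the monocyte antigen Ly6C, gave differences of 4.48 and 5.09, but they are near-identical copies whose reads the counting may have split, so their separate values are uncertain. Flt3, a receptor of multipotent and dendritic precursors, was at 34.2 to 70.9 CPM in GMPs and 48.6 to 109 in CMPs, a difference of -0.65 (SE 0.29, adjusted p = 0.1264).

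Part of the cytokine and growth factor receptors differed. Of 29 tested growth factor receptors, 11 were higher in GMPs and 3 in CMPs, with a median of 0.61. Csf2ra and Csf2rb, the chains of the GM-CSF receptor, were higher in GMPs by 2.66 (SE 0.27) and 2.86 (SE 0.42), with the reservation that Csf2rb has a close copy, Csf2rb2. Csf2ra stood at 41.3, 31.7, 44.3 and 68.7 CPM in GMPs and 8.18, 7.39, 5.27 and 8.43 CPM in CMPs. Il3ra and Il6ra were higher by 2.36 and 2.13. Csf3r, the receptor of the granulocyte factor G-CSF, stood at 136, 117, 124 and 183 CPM in GMPs and 45.9, 54.1, 50.8 and 48.6 CPM in CMPs, a difference of 1.49 (SE 0.15). Csf1r, the receptor of the macrophage factor M-CSF, was higher by 1.89 (SE 0.32), with 62.9 to 97.5 CPM in GMPs and 11.2 to 36.2 in CMPs. The receptors higher in CMPs included Epor, the erythropoietin receptor (-4.96, SE 0.51), and Il1r1 (-1.65, SE 0.36).

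Most tested genes of the erythroid and megakaryocytic branches were higher in CMPs. Of 26 tested erythroid effector genes, 20 were higher in CMPs and the other 6 were not called, with a median of -4.76, and of 31 megakaryocyte and platelet genes, 24 were higher in CMPs and 1, Serpine2, in GMPs, with a median of -2.64. Car1, an erythroid carbonic anhydrase, stood at 1437, 1032, 384 and 973 CPM in CMPs and 10.7, 16.5, 3.05 and 2.40 CPM in GMPs. The difference was -6.87 (SE 0.74, adjusted p = 0.0001582), and both groups spread widely, CMPs 3.74-fold and GMPs 6.86-fold from lowest to highest library. Car2, another carbonic anhydrase, was lower in GMPs (-4.13, SE 0.27) and Blvrb, a biliverdin reductase of red cells, (-3.57, SE 0.27). Epor had 17.3 to 26.6 CPM in CMPs and 0.264 to 1.34 in GMPs. Rhag and Rhd, parts of the Rh complex of the red cell membrane, were at 9.75 to 64.4 and 9.57 to 60.6 CPM in CMPs and below 0.5 CPM in all GMP libraries. The alpha globin gene Hba-a1, whose reads the counting may have split with its near-identical copy, at means of 24.3 CPM in CMPs and 6.41 in GMPs, was not called (-1.92, SE 0.97, adjusted p = 0.1848).

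Pf4 stood at 487, 709, 491 and 772 CPM in CMPs and 44.6, 45.6, 9.12 and 15.3 CPM in GMPs, a difference of -4.42 (SE 0.51, adjusted p = 0.0002338). GMP replicates 2 and 3 held more of it than replicates 4 and 5, as they did of Car1. Vwf (von Willebrand factor) was lower in GMPs (-3.51, SE 0.54), F2r (a thrombin receptor) (-3.23, SE 0.32) and Itga2b (CD41) (-1.33, SE 0.17). Gp1bb, with -3.83 (SE 0.39), shares 91.1% of its exonic bases with Sept5. Summed over the marker lists, erythroid markers came to 526 to 1710 CPM in CMPs and 11.7 to 60.3 in GMPs, and megakaryocyte markers to 588 to 896 and 26.8 to 73.4.

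Of the transcription factors of these branches, the largest changes were on the CMP side as well, and most members were not called. Of 28 tested erythroid and megakaryocyte factors, 10 were higher in CMPs and 2 (Rarg and Zbtb7a) in GMPs, with a median of -0.69. Of the 10, Zfpm1 lost its call without GMP replicate 2, 3 or 5 or CMP replicate 5, each left out alone. Gata1 stood at 86.1, 96.5, 81.0 and 114 CPM in CMPs and 7.26, 3.18, 3.91 and 3.57 CPM in GMPs, a difference of -4.39 (SE 0.29, adjusted p = 1.167e-05). Gfi1b, the erythroid and megakaryocytic relative of Gfi1, stood at 108, 138, 100 and 155 CPM in CMPs and 5.04, 7.60, 5.08 and 3.96 CPM in GMPs, a difference of -4.52 (SE 0.25, adjusted p = 4.24e-06). So Gfi1 and Gfi1b, which encode related zinc finger repressors, differed in opposite directions. Klf1, the red cell Krüppel-like factor, was lower in GMPs (-4.80, SE 0.51), Tal1 (-2.59, SE 0.38), Sox6 (-2.66, SE 0.32) and Lmo2 (-1.76, SE 0.24). Gata2 did not follow Gata1 in full. It was at 23.8, 142, 65.8 and 53.3 CPM in CMPs and 44.5, 45.7, 30.5 and 28.7 CPM in GMPs, so the groups overlapped, and the difference of -0.93 (SE 0.44, adjusted p = 0.1517) was not called. Without CMP replicate 2, the lowest CMP library, it was -1.22 (adjusted p = 0.02848, range 0.02848 to 0.906 over the alternatives). Fli1 and Nfe2 had differences of 0.23 (SE 0.15) and -0.38 (SE 0.36).

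Part of the stem cell and early lymphoid genes were higher in CMPs. Of 29 tested stem cell genes, 12 were higher in CMPs and the other 17 were not called, with a median of -1.42. Meis1, a homeobox factor of stem cells, stood at 87.0, 89.3, 88.5 and 50.9 CPM in CMPs and 41.2, 30.5, 26.8 and 19.5 CPM in GMPs, a difference of -1.42 (SE 0.25, adjusted p = 0.002448). Mecom (Evi1) was lower in GMPs (-2.26, SE 0.52), as was Mycn (-3.67, SE 0.65). Of 15 tested early lymphoid genes, 4 were higher in CMPs (Dntt, Wfdc17, Lsp1 and Bcl11a), with a median of -0.65. Dntt, the terminal transferase of lymphoid precursors, stood at 16.2, 44.1, 36.5 and 43.5 CPM in CMPs and at 0, 0.160, 0 and 0.276 CPM in GMPs, a fitted difference of -7.92 (SE 0.83, adjusted p = 0.0001431). Beyond these lists the strongest calls on the CMP side included Ctla2a, a cathepsin inhibitor gene (-5.00, SE 0.18, adjusted p = 4.679e-07), Tsc22d1 (-3.50, SE 0.13, adjusted p = 4.679e-07), Mfsd2b, a sphingosine 1-phosphate exporter of red cells and platelets (-4.68, SE 0.21), and Rgs1, a regulator of G-protein signalling (-3.30, SE 0.19). Ctla2a libraries ran from 736.5 to 1002 CPM in CMPs and from 22.2 to 35.3 in GMPs.

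Genes shared by mast cells, basophils and eosinophils split. Of 15 tested, 5 were higher in GMPs and 4 in CMPs, with a median of 0.94, and the marker sums overlapped at 138 to 362 CPM in GMPs and 161 to 207 in CMPs. Of the 5, Mcpt8 lost its call without GMP replicate 4 or CMP replicate 2 or 3, each left out alone. Of the 4, Fcer1a lost its call without GMP replicate 4 or CMP replicate 2, 3 or 5. Hdc, the enzyme that makes histamine, stood at 191, 229, 264 and 271 CPM in GMPs and 19.7, 27.7, 32.4 and 29.9 CPM in CMPs, a difference of 3.12 (SE 0.18, adjusted p = 7.198e-06). Gzmb (granzyme B) stood at 54.3, 178, 23.4 and 8.64 CPM in GMPs, a 20.6-fold range among libraries of 1 group, and at 4.72, 2.00, 1.23 and 3.32 CPM in CMPs. Cpa3, the mast cell carboxypeptidase, differed by -0.09 (SE 0.35).

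Alas1 was the sharpest change in the heme pathway. It encodes the housekeeping form of the first and rate-limiting enzyme of heme synthesis, and heme is the cofactor of myeloperoxidase and of the phagocyte oxidase. It stood at 494, 705, 878 and 807 CPM in GMPs and 39.9, 39.5, 51.4 and 44.0 CPM in CMPs, a difference of 4.04 (SE 0.19, adjusted p = 2.144e-06) that was called under every alternative (3.94 to 4.17). Of the later enzymes, Alad was higher in CMPs (-1.10, SE 0.14), Urod had -0.79 (SE 0.11) and Fech, the last enzyme, 0.36 (SE 0.32). Of 23 heme and iron genes tested, 3 were higher in GMPs and 1 in CMPs, with a median of -0.15, and 1 of the 3, Slc40a1, lost its call when any one of 5 libraries was left out. With Slc40a1 set aside, the shares of this list were close to the 8.14% and 5.32% of all tested genes. The receptor gene Tfrc, for transferrin iron uptake, differed by -0.06 (SE 0.14).

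Part of the secretory pathway genes were higher in GMPs. Of 43 tested genes of endoplasmic reticulum folding and secretion, 17 were higher in GMPs and 1 in CMPs, with a median of 0.76, and 35 were higher by sign. Of the 17, Hyou1 lost its call without GMP replicate 4 or 5 or CMP replicate 2 or 3, each left out alone. P4hb, a protein disulfide isomerase, stood at 1445, 1706, 1550 and 1485 CPM in GMPs and 395, 376, 445 and 391 CPM in CMPs, a difference of 1.94 (SE 0.10, adjusted p = 2.381e-06). Sec61a1, the channel through which new proteins enter the reticulum, was higher by 2.33 (SE 0.12, adjusted p = 3.319e-06), with 413 to 536 CPM in GMPs and 88.6 to 107 in CMPs. Calr and Pdia4 were higher by 1.60 (SE 0.10) and 2.13 (SE 0.12). Hspa5, the main stress-induced chaperone BiP, had 0.67 (SE 0.16), below 2-fold, and the stress factor gene Ddit3 was the member higher in CMPs, (-1.56, SE 0.14).

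Metabolic genes moved in part. Of 24 tested glycolytic genes, 10 were higher in GMPs and 2 (Aldoc and Slc2a3) in CMPs, with a median of 0.97. Pkm (pyruvate kinase) stood at 1079, 1036, 911 and 1273 CPM in GMPs and 222, 268, 351 and 293 CPM in CMPs, a difference of 1.92 (SE 0.15), and Hk3, the myeloid hexokinase, differed by 2.21 (SE 0.18), while Ldha differed by 0.17 (SE 0.14). The glucose transporter gene Slc2a3 was lower in GMPs (-1.39, SE 0.20). Of 23 genes of the tricarboxylic acid cycle, 4 were higher in GMPs (Dlst, Ogdh, Sdha and Dlat) and DESeq2 called 3, with a median of 0.17. Without GMP replicate 5 Sdha and Dlat were short of 2-fold (0.93 and 0.91), and Dlat also without GMP replicate 3 or CMP replicate 2 or 3 (0.95 to 0.97), with RLE scaling and by DESeq2. With Sdha and Dlat set aside, the share of this list on the GMP side was close to the 8.14% of all tested genes. Of 29 genes of purine and nucleotide synthesis, 5 were higher in GMPs and 24 by sign, with a median of 0.29, led by Pfas (4.91, SE 0.44), Impdh1 (2.67, SE 0.28) and Adssl1 (2.31, SE 0.16), while the other 2, Gart and Mthfd1l, were at the threshold. Gart was short of 2-fold without GMP replicate 5 or CMP replicate 3 (0.98 and 0.95), and Mthfd1l without any of 4 libraries (GMP replicate 5, CMP replicates 3, 4 and 5; 0.89 to 0.99), with RLE scaling and by DESeq2, which called 4 of the list. Among the 15 eicosanoid enzymes tested, 4 were higher in GMPs and 1 in CMPs. Lta4h, which makes leukotriene B4, ran from 553 to 783 CPM in GMPs and 155 to 188 in CMPs, and Gstm1 was higher by 2.30 (SE 0.20).

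In the cell cycle and housekeeping lists few genes were called. Of 45 genes of DNA replication, 7 were higher in GMPs (median 0.42), and of 45 genes of mitosis, 4 were higher in GMPs and 1, Foxm1, in CMPs (median 0.21), the latter list with a share on the GMP side close to the 8.14% of all tested genes. Of these, Mcm3 and Kif20a were short of 2-fold without GMP replicate 5 (both 0.92) or CMP replicate 3 (0.95 and 0.85), and Nek2 without GMP replicate 3 (0.94). Fen1, among the 7 replication genes, shares 78.8% of its exonic bases with Gm10143, and Kif20a 29.3% with Cdc23, so their counts are uncertain. Mcm10, a replication initiation gene, differed by 1.55 (SE 0.23) and Foxm1, a factor of mitotic genes, (-1.82, SE 0.27). Mki67 and Top2a had -0.37 (SE 0.13) and 0.32 (SE 0.13). Of 86 cytosolic ribosomal protein genes tested by edgeR, 42 passed the adjusted p, all of them lower in GMPs, but 0 reached 2-fold as well. Of the 86, 3 were higher in GMPs by sign, the median was -0.43, and 57 had an unadjusted p under 0.05, all lower in GMPs, while DESeq2 also called 0. Their median kept its sign under every alternative. The 84 nuclear genes of oxidative phosphorylation had a median of -0.09, with 0 called by edgeR, 1 by DESeq2 (higher in CMPs), 3 and 15 at an unadjusted p under 0.05 on the GMP and CMP side, and 2 and 7 at an adjusted one. The 36 genes of the mitochondrial genome had a median of -0.19, with 0 called by edgeR and by DESeq2 13 at an unadjusted p under 0.05 and 12 at an adjusted one, all lower in GMPs. Of 82 mitochondrial ribosomal protein genes 1 was called (Mrpl52, higher in CMPs). Of 41 proteasome genes, 2 were called higher in GMPs (Psmd3 and Psmd13, the latter not without GMP replicate 5, at 0.98), but the median was -0.22, 11 were higher in GMPs by sign, and 4 on the GMP side and 8 on the CMP side passed the adjusted p.

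Among interferon-stimulated and immediate early genes, most were not called, and more were called higher in CMPs than in GMPs. Of 42 tested interferon-stimulated genes, 11 were higher in CMPs and 1, Stat2, in GMPs, with a median of -0.58. Of the 11, Ifi44 lost its call without GMP replicate 3 or 4 or CMP replicate 5, each left out alone. Ifitm1, an antiviral membrane protein gene that is also high in immature blood cells, stood at 672, 450, 664 and 918 CPM in CMPs and 181, 97.2, 136 and 136 CPM in GMPs, a difference of -2.30 (SE 0.24, adjusted p = 0.0001254). Ifitm3 and the exonuclease gene Isg20 were lower in GMPs by -1.36 (SE 0.14) and -2.11 (SE 0.28), and Usp18 and Ifit1, at means of 9.92 and 3.99 CPM in CMPs, by -2.70 (SE 0.35) and -3.68 (SE 1.12). Of 24 immediate early genes, which respond within minutes to stimuli and to handling of cells, 8 were higher in CMPs and 1, Jun, in GMPs, with a median of -0.47. Btg2 (-1.70, SE 0.18), Nr4a1 (-1.91, SE 0.37), Egr1 (-1.35, SE 0.34) and Ier5 (-2.44, SE 0.24) were among the former, Jun differed by 1.13 (SE 0.23), and Fos and Myc by 0.23 (SE 0.19) and 0.16 (SE 0.15).

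**Figure D3:**
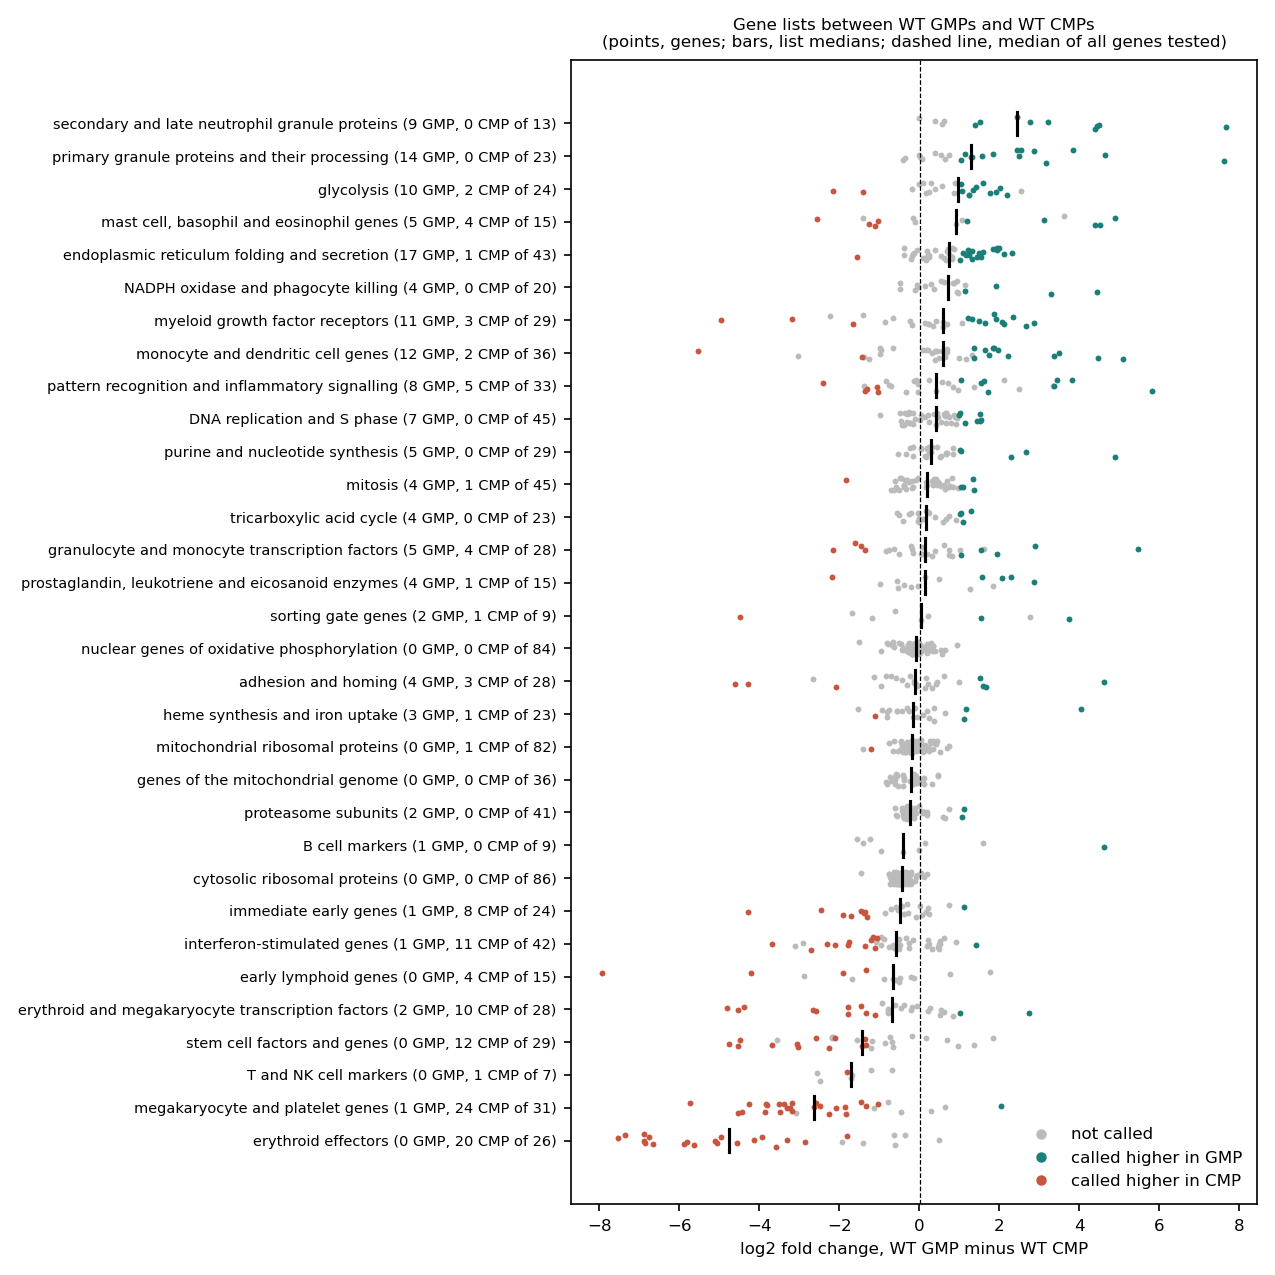
Log2 difference (GMP minus CMP) of every tested member of each gene list, with 1 point per gene, a bar at the list's median, lists ordered by median, points coloured by call and a dashed line at the median of all genes. Medians run from -4.76 for erythroid effectors to 2.46 for the list of secondary and late neutrophil granules, and the ribosomal protein genes form a narrow group at -0.43.

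Elane and Prtn3 lie next to each other on chromosome 10, and the region was looked at after its values had been seen. Elane spans chr10:79886247-79888215 and Prtn3 chr10:79874476-79883174, both on the plus strand (GENCODE vM21, mm10). Within 250 kb of the start of Elane 45 genes are annotated in full or in part, 31 were tested, 10 were higher in GMPs and 1 (Cbarp) in CMPs, beside 8.14% and 5.32% of all tested genes. The window was centred on a called gene, so these counts are a description with no test. Cbarp begins 254.6 kb away and reaches into the window. The 10 held the serine proteases Elane, Prtn3 and Prss57 and also genes of other functions, such as Palm, which encodes the membrane protein paralemmin (3.29, SE 0.26), Plppr3 (2.31, SE 0.28), Polrmt, the mitochondrial RNA polymerase (1.60, SE 0.33), and Arid3a (1.17, SE 0.27). Plppr3 is read from the other strand and overlaps Prtn3 over 9.2% of the exonic bases of Prtn3, a stretch where the counts of the pair cannot be told apart. Cfd, which encodes complement factor D and begins 4.6 kb from Elane, was at 0.368 CPM in GMPs and 0.479 CPM in CMPs and was not called. Ptbp1 and Bsg in the same window had 0.67 (SE 0.21) and 0.09 (SE 0.12).

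The other WT populations of the series show where the 2 sets of genes peak. Levels here are CPM scaled over all 46 libraries, with the lowest, median and highest library. Of the 1325 genes higher in GMPs, 1020 (77.0%) had their highest mean in GMPs among 6 WT populations and 248 (18.7%) in common lymphoid progenitors (CLPs). Of the 866 genes higher in CMPs, only 87 (10.0%) peaked in CMPs, while 250 (28.9%) peaked in short-term stem cells (ST-HSCs), 229 (26.4%) in long-term stem cells (LT-HSCs), 186 (21.5%) in megakaryocyte-erythrocyte progenitors (MEPs) and 114 (13.2%) in CLPs. Over all tested genes the shares were 23.2% for GMPs, 5.78% for CMPs, 16.3% for ST-HSCs, 14.7% for LT-HSCs, 19.9% for MEPs and 20% for CLPs. With GMPs and CMPs left out, CLPs were the highest population for 60.8% of the genes higher in GMPs. The same share was 14.5% for the genes higher in CMPs and 29.4% for all tested genes. These shares rest on group means, and the CLP libraries differed widely for some genes. Mpo ran from 2.61 to 1807 CPM and Ctsg from 0.332 to 767 CPM among them, whereas Cybb was high in all, at 212 to 690 CPM. How much of the CLP shares rests on single CLP libraries was not tested. Since a gene higher in CMPs than in GMPs cannot peak in GMPs, and the reverse, these shares are a description with no test.

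Elane was at 0.751, 1.13 and 1.54 CPM in LT-HSCs, 0.895, 2.80 and 6.81 in MEPs, 309, 363 and 404 in CMPs and 6866, 9347 and 9996 in GMPs, so CMPs already lay far above the stem cells. In ST-HSCs it was at 0.382, 2.25 and 7.85 CPM and in CLPs at 0.249, 24.2 and 81.5. Mpo, unlike Elane, was above LT-HSCs (3.19, 5.91 and 6.07 CPM) in every ST-HSC library (62.2, 84.0 and 90.5 CPM). Cebpe was at or below 0.141 CPM in every LT-HSC, ST-HSC, MEP and CLP library. Gata1 was at 217, 226 and 271 CPM in MEPs, above the 74.0, 83.4 and 104 of CMPs, and Car1 at 12180, 12750 and 14080 CPM in MEPs against 351, 912 and 1331 in CMPs. Pf4 had its highest levels in CMPs, with 449, 545 and 709 CPM, beside 334, 351 and 352 in LT-HSCs and 6.53, 65.8 and 137 in MEPs. Meis1 was at 136, 158 and 268 CPM in LT-HSCs and 46.8, 80.6 and 80.8 in CMPs. Dntt was at 0.830, 391 and 644 CPM in CLPs and 20.2, 73.1 and 118 in ST-HSCs, and Irf8 at 34.7, 161 and 551 CPM in CLPs. The CLP libraries differed widely among themselves for Elane, Dntt and Irf8. Alas1, at 449, 688 and 736 CPM in GMPs, was at or below 46.9 CPM in every library of the other 5 WT populations, MEPs included (15.5, 18.8 and 21.3 CPM).

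**Figure D4:**
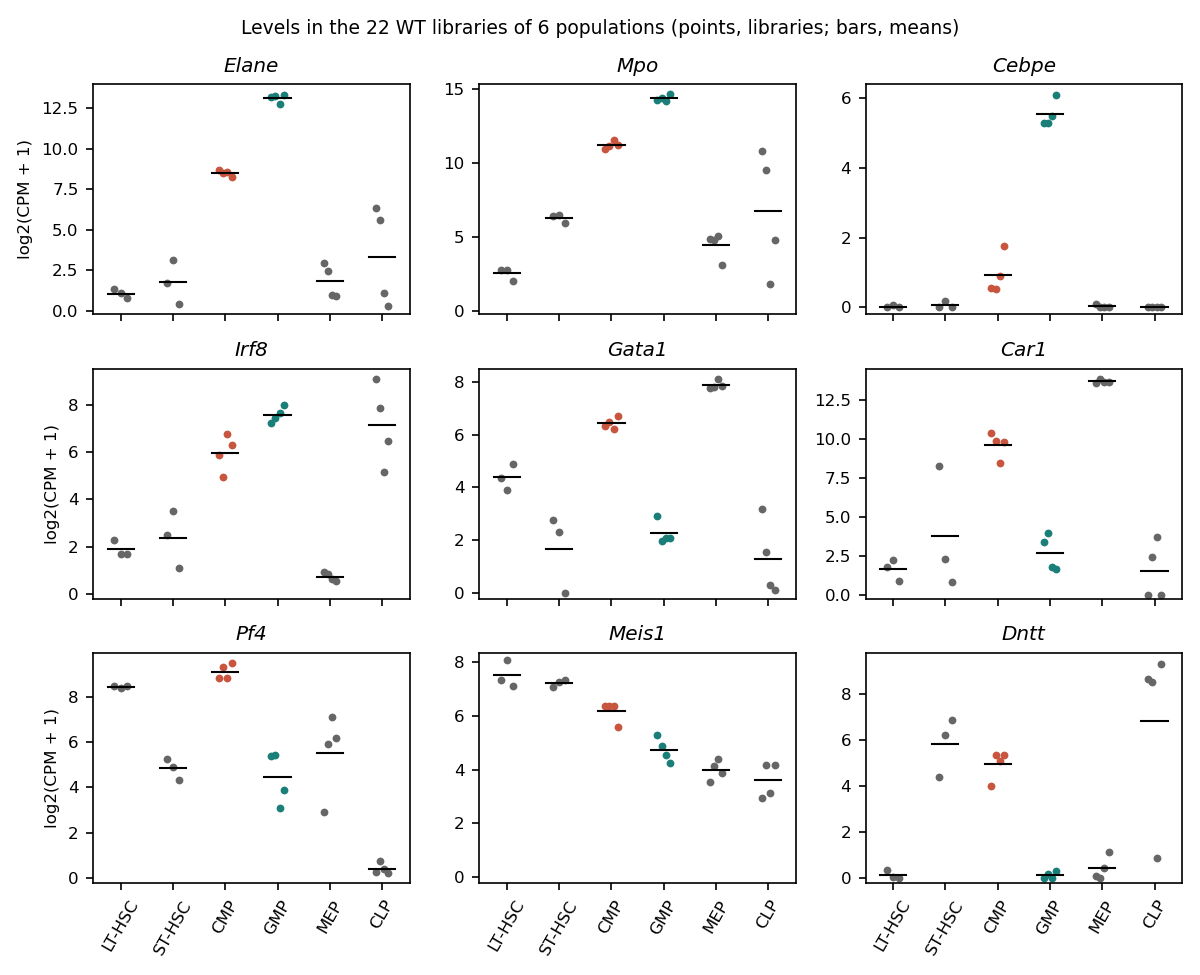
Levels of named genes, 1 panel per gene, as log2(CPM + 1) in the 22 WT libraries of 6 populations, with 1 point per library and bars at the means. Elane, Mpo and Cebpe points are highest in GMPs, Gata1 and Car1 points in MEPs, Meis1 points in the stem cells, and Pf4 points in CMPs and LT-HSCs.

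The same pair of populations was sequenced from 8 libraries labelled Tet2 knockout, which gave a second measurement in separate libraries. Tet2 encodes an enzyme that oxidises 5-methylcytosine. Its own counts did not tell the genotypes apart, at 36.2 to 45.7 CPM in WT GMPs and 43.5 to 65.6 in GMPs labelled Tet2 knockout, and 19.1 to 26.2 and 6.56 to 27.2 CPM in the CMPs, with each genotype scaled on its own 8 libraries. A floxed allele loses part of the gene only, so these whole-gene counts do not check the labels. In WT cells Tet2 was higher in GMPs by 0.89 (SE 0.16, adjusted p = 0.002827), short of 2-fold. Of 16588 genes tested between GMPs and CMPs labelled Tet2 knockout, 1847 (11.1%) were higher in GMPs and 900 (5.43%) in CMPs. Of the 1325 WT genes higher in GMPs, 1280 were tested there, 1231 had the same sign and 914 (71.4%) were called the same way, which is 49.5% of the calls in that direction. Of the 866 WT genes higher in CMPs, 852 were tested, 827 had the same sign and 478 (56.1%) were called the same way, which is 53.1% of the calls in that direction. The leading genes kept their direction, with 4.90 for Elane, 3.61 for Mpo, 3.03 for Prtn3, 6.84 for Cebpe, 4.22 for Alas1, -4.59 for Gata1, -8.85 for Car1 and -3.93 for Pf4 in the libraries labelled Tet2 knockout. The difference from WT was largest for Car1 (interaction -2.06, SE 0.91, adjusted p = 0.36) and Cebpe (1.30, SE 0.59, adjusted p = 0.3794), and for none of these 8 genes did it pass edgeR's interaction test. The list medians there were 1.41 for primary granule genes, -5.82 for erythroid effectors, -2.18 for megakaryocyte genes and -0.38 for interferon-stimulated genes, of which 4 were called higher in CMPs and 1 in GMPs. The median of mast cell, basophil and eosinophil genes turned to -0.34 from 0.94 in WT, with 2 called higher in GMPs and 6 in CMPs. Medians also turned for mitosis (-0.12 from 0.21), B cell markers (0.33 from -0.40) and adhesion and homing genes (0.20 from -0.09). That of erythroid and megakaryocyte factors shrank to -0.03 from -0.69. The other lists kept the sign of their median.

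**Figure D5:**
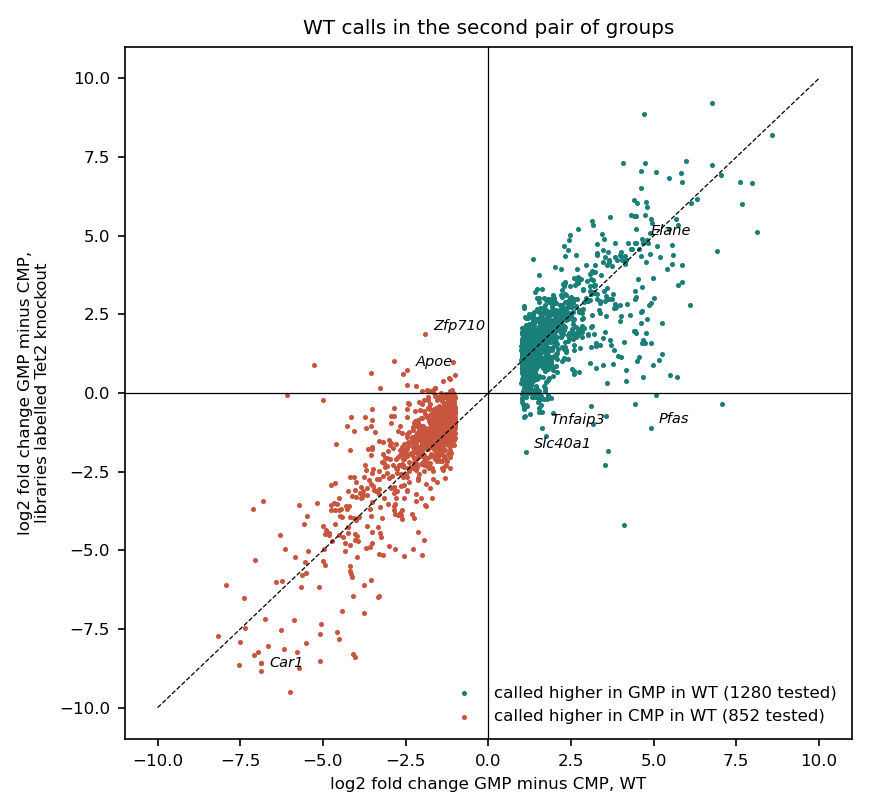
Log2 difference (GMP minus CMP) of the genes called in WT (horizontal axis) against the same difference in libraries labelled Tet2 knockout (vertical axis), 1 point per gene. Nearly all points share their sign on both axes, as 1231 of 1280 and 827 of 852 did, and Slc40a1, Zfp710 and Pfas lie on the other side.

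A test of the difference between the differences, over all 16 libraries, gave 134 of 18406 genes (0.728%) at an adjusted p under 0.05, and 2323 at an unadjusted p under 0.05. The number at an adjusted p was far larger by DESeq2 and far smaller with the replicate number as a block, as given under the processing. Of the 134, 65 had a GMP minus CMP difference larger by at least 1 on the log2 scale in the libraries labelled Tet2 knockout, and 61 a smaller one. Only 1 WT gene in each direction was called the opposite way, Slc40a1 (ferroportin, the iron exporter) and Zfp710. The WT call of Slc40a1 was lost without WT GMP replicate 2, 3 or 5 or WT CMP replicate 3 or 4, each left out alone, with differences of 0.89 to 1.12 beside 1.13 with all libraries. Pfas, the enzyme of a step in purine synthesis, had the largest interaction in size among genes tested in WT with a mean of at least 10 CPM in 1 of the 4 groups. Scaled over the 16 libraries, it stood at 85.6, 98.2, 101 and 103 CPM in WT GMPs and 2.88, 1.39, 1.91 and 6.22 CPM in WT CMPs. In CMPs labelled Tet2 knockout it was at 138, 116, 155 and 178 CPM, and in the matching GMPs at 101, 73.5, 86.3 and 9.04 CPM. The interaction was -6.08 (SE 0.78, adjusted p = 0.003549). In the other WT populations Pfas was at 43.9 to 73.0 CPM in LT-HSCs, 28.3 to 65.1 in CLPs and 2.74 to 6.05 in MEPs, so WT CMPs and MEPs were its low populations.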

How the data were processed

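RNA was sequenced from sorted bone marrow progenitors by SMART-seq2 without molecular identifiers, from 200 cells a library per the labels, while the study's methods give about 300 cells a group. The authors trimmed reads with Trim Galore, aligned them with HISAT2 to the mouse genome (the study's methods name mm10, and the submitters' processing notes list mm10 and mm9) and deposited raw counts per gene, whole numbers that were not normalized. Their counting program, annotation and strand setting are not given in the sources used here, and SMART-seq2 does not mark strand. The study's own calls rested on DESeq2.

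From the deposited counts, WT GMP and WT CMP libraries (4 each) were compared with edgeR 4.0.16 in R 4.3.3 (limma 3.58.1). Genes passing filterByExpr were scaled by TMM, fitted with glmQLFit (prior count 2) and tested with glmQLFTest, two-sided, with Benjamini-Hochberg adjustment over all tested genes. A call needs an adjusted p under 0.05 and at least 2-fold. The SE is the log2 difference divided by the square root of the F statistic. CPM are counts per 1000000 counts of a library, with library sizes scaled by TMM. Libraries labelled Tet2 knockout were fitted alone, and the interaction over 16 libraries. The exact permutation of 4 against 4 libraries cannot go below p = 0.0286. The study gives 4 mice for its comparisons of these populations, and the labels do not say which library came from which animal. The floor of 3 counts covers counting error only.

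Genes were named by rule: the 12 genes with the largest change in each direction among those of at least 100 CPM whose libraries did not overlap, up to 6 called members of each list of at least 10 CPM with the largest changes, up to 6 interaction genes, and fixed genes (the gate, Mpo, Elane and other lineage genes) whatever their values. Others, such as list members below these levels and the genes around Elane, were picked with their values in view. The comparison and its gene lists were chosen with earlier results of these data known. Lists are described by counts and medians, since no set test was run. Some genes sit in more than 1 list, and some list members are not reported here. Alternatives were DESeq2 1.42.0, RLE scaling, other filters, fits on 22 or 46 libraries, the replicate block and leaving out each library. Scaling by library totals with no TMM factors and leaving out genes of the mitochondrial genome were added after the data had been seen. The pipeline was tested on simulated data: of 200 genes changed 2-fold between WT GMPs and WT CMPs, 20% were called (31% passed the adjusted p alone) among 15552 genes, and of 200 changed 4-fold, 80% were called among 15586. Of 55421 gene identifiers 55154 matched GENCODE vM21 (mm10). Promoters matched 10371 of 16273 tested symbols.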

Additional observations from a re-analysis of the deposited data

Results flagged for a closer look

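In the 336 groups of 4 libraries checked for the named genes, 16 held a library that stood apart from the other 3 by Dixon's criterion, close to the 1 in 20 that chance gives. No library accounts for most of them.

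In CMPs, replicate 2 stood high for Tlr2 (22.2 CPM, the others up to 10.2), Isg20 (38.6, up to 23.3) and Sphk1, a sphingosine kinase gene (22.6, up to 6.74), and low for Tsc22d1 (214 CPM, the others from 267.8). CMP replicate 3 stood high for Vcam1 (1.80 CPM, the others up to 0.0709) and S100a8 (3.90, up to 0.927). CMP replicate 4 stood high for Ctsg (1653 CPM, the others up to 1217) and Pglyrp1 (18.1, up to 8.85). CMP replicate 5 stood low for Meis1 (50.9 CPM, the others from 87.0) and high for Fcer1a, a chain of the high-affinity IgE receptor (25.2, up to 21.8).

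In GMPs, replicate 2 stood low for Lta4h (552.9 CPM, the others from 776.4), replicate 3 high for Slc16a1, a lactate transporter gene (213 CPM, up to 189), and replicate 4 high for Mrpl52 (47.3 CPM, up to 25.6) and Id1 (10.0 CPM, up to 3.12). GMP replicate 5 stood high for Hvcn1 (63.5 CPM, up to 44.6) and low for Myct1 (9.72 CPM, from 18.1).

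The GMP minus CMP difference itself differed between the libraries labelled Tet2 knockout and WT for 134 of 18406 genes by edgeR's interaction test with Benjamini-Hochberg adjustment, and the 6 genes that the naming rule took from them follow. Levels here are CPM scaled over the 16 libraries. Adnp had an interaction of 9.26 (SE 1.29, adjusted p = 0.005934), with 27.1 to 33.9 CPM in the 4 GMP libraries labelled Tet2 knockout, 0 in the 4 matching CMP libraries and at most 0.521 in every WT library. Pfas had -6.08 (SE 0.78), as described above. Zfp710 had 3.72 (SE 0.61, adjusted p = 0.008972), with 11.1 to 28.8 CPM in GMPs labelled Tet2 knockout and 1.70 to 5.21 in WT GMPs, against 3.66 to 9.98 and 6.68 to 16.6 in the CMPs. Apoe, the lipid carrier gene, had 3.13 (SE 0.63, adjusted p = 0.02887), with 167 to 514 CPM in WT CMPs and 21.4 to 34.2 in CMPs labelled Tet2 knockout. Slc40a1 had -3.08 (SE 0.49, adjusted p = 0.006989), with 33.0 to 65.1 CPM in CMPs labelled Tet2 knockout and 5.003 to 14.9 in WT CMPs. Tnfaip3, an inhibitor of NF-kB signalling, had -2.83 (SE 0.56, adjusted p = 0.02678), with 59.5 to 123 CPM in WT GMPs and 6.80 to 19.4 in GMPs labelled Tet2 knockout. With the replicate number as a block the log2 interaction of Adnp (9.02, adjusted p = 0.1431) and the interaction of Apoe (3.11, adjusted p = 0.09213) no longer passed.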

How the results depend on the processing

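The genes called between WT GMPs and CMPs (1325 higher in GMPs and 866 in CMPs) numbered 1105 to 1470 and 780 to 846 without 1 library, 1754 and 1259 by DESeq2, 1292 and 892 with RLE scaling, 1332 and 754 with no filter on low counts and 1214 and 951 with library totals. DESeq2 shared 97.9% and 100% of the calls. At least 10 CPM in 4 libraries left 913 and 510 calls, of fewer genes tested. Calls fell to 187 and 253 in the fit of all 46 libraries and 321 and 309 in that of 22 WT libraries, and the cause was not tested. Of the named genes 111 lost their calls in the former and 87 in the latter, Mpo, Ms4a3, Hp, Gfi1 and Irf8 in both, and Cebpe, Elane and Gata1 in the former alone (adjusted p of Elane and Gata1 0.08595, their highest over the alternatives, from 1.174e-219 and 1.444e-56 by DESeq2). With no fold threshold 2376 and 1875 passed, at 4-fold 428 and 365, and against 2-fold by glmTreat 458 and 317. In libraries labelled Tet2 knockout DESeq2 called 1352 genes higher in CMPs, and the counts ran from 1620 to 2216 and 791 to 952 without 1 library. The interaction gave 747 genes by DESeq2. The sign of Cd34 turned without WT GMP replicate 2 (-0.0363; 0.112 at the other end, without WT CMP replicate 4) and with library totals (-0.0125).

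Same-numbered libraries deviated together only weakly (correlations 0.068, 0.135, 0.047 and 0.104), although each GMP library correlated best with its own number, so the numbers were not taken as pairs. A replicate block gave 1293 and 793 calls, and 51 interaction genes, with Adnp and Apoe lost. Of 160 named genes called, 47 were called under every alternative and 19 lost the call without 1 library, and Cebpa, Hlf and Gata2 gained it. List medians moved by more than the spread in 10 of 511 values. Library depth limits genes near the floor of 3 counts.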

Other observations

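Among adhesion and homing genes, which no comparison above described, 4 of 28 tested were higher in GMPs and 3 in CMPs, beside 8.14% and 5.32% of all tested genes. Their median was -0.09 on the log2 scale. Of the 4, Vcam1 (4.62) and Ccr1 (1.60) lost their calls without GMP replicate 4 (adjusted p = 0.05967 and 0.07718) or GMP replicate 5 (0.07204 and 0.07363), Vcam1 also without GMP replicate 2 or 3 or CMP replicate 5, and Ccr1 also without CMP replicate 2 or 3. With Vcam1 and Ccr1 set aside, the share on the GMP side was close to that of all tested genes. The integrin gene Itga5 was higher in GMPs by 1.67 (SE 0.35, adjusted p = 0.005581, edgeR), at 23.8 to 40.9 CPM against 6.31 to 17.4 in CMPs. Cxcr2, the neutrophil chemokine receptor, was higher by 1.52 (SE 0.28, adjusted p = 0.003083), at 12.6 to 18.8 CPM in GMPs and 3.87 to 7.52 in CMPs. S1pr1, a receptor that guides cells out of tissues towards blood, was lower in GMPs (-4.29, SE 0.52, adjusted p = 0.0002928), at 21.8 to 39.5 CPM in CMPs and 0.483 to 3.05 in GMPs, and Cd9 (-2.07, SE 0.15, adjusted p = 2.151e-05). Cxcr4, for the marrow homing receptor, had -0.29 (SE 0.19) and was not called.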
